A study of Homo sapiens with 3 samples.

Results

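The 10 genes described here encode the cell-to-cell junctions of epithelial cells: the classical cadherins CDH1 (E-cadherin) and CDH3 (P-cadherin), the desmosomal cadherins DSG2, DSG3, DSC2 and DSC3, and the desmosomal plaque proteins DSP, PKP1, PKP3 and JUP. They were taken by symbol from the deposited table, in which all 10 of them were found among 29960 genes. RNA was sequenced from 5637, a cell line from a human bladder cancer, both as parental cells (5637P, genotype label WT) and as a gemcitabine-resistant derivative (5637GR, genotype label Gemcitabine Resistant), and cells of both groups were labelled untreated. Both were grown in RPMI medium with serum, and each library was made from a single-cell clone, so that a library stands for the descendants of a single cell. The labels call the gemcitabine treatment that produced 5637GR acute, whereas the methods of the study describe stepwise rising exposure, after which the resistant cells were kept without the drug. Read counts were used for 1 parental and 2 resistant libraries, and the authors' group means of normalized counts for each group, for which the study names 3 clones.

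Classical cadherins bind the same protein on the neighbouring cell and are tied to actin inside the cell through catenins, forming the adherens junction. Desmosomes are built from other cadherins, the desmogleins (DSG) and desmocollins (DSC), whose tails are held by plakoglobin (JUP) and the plakophilins (PKP) and coupled by desmoplakin (DSP) to keratin filaments. In stratified epithelia such as the urothelium, DSG2 and DSC2 are widely expressed, while DSG3, DSC3 and PKP1 are known from basal and squamous layers, and loss of E-cadherin with gain of N-cadherin (CDH2) is a classical sign of a mesenchymal state.

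None of the 10 genes passed the test between resistant and parental libraries (edgeR's quasi-likelihood test, adjusted p under 0.05), against 0.876% of the 15643 genes tested, 0.294% higher (46 genes) and 0.582% lower (91 genes). At an unadjusted p under 0.05 the count was also 0, against 9.7% of all genes tested. DSC2 had the highest positive log2 fold change of the 10 genes and PKP3 and DSP the most negative ones, and CDH1 and DSG2 had log2 fold changes close to 0. The parental group held 1 library, so the spread in the test was that between the 2 resistant clones, moderated over genes, and the parental library was assumed to vary alike. A p that missed the threshold does not show that levels were alike, and the 95% interval of each of the 10 genes reached past 1.5-fold in at least 1 direction. In bulk RNA, fewer cells with a transcript and less of it per cell cannot be told apart.

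Total counts on genes were between 14475531 and 17461941 per library. Of the 7 epithelial markers, EPCAM, CDH1 and keratin genes, none was at 3 reads or fewer in any library, and their summed level was 4298 to 5356 FPKM (deposited values in which reads are scaled by gene length and library total). Among them KRT5, the basal keratin, was at 272 CPM (read counts per unit of library total, adjusted by TMM scaling, a correction for library composition) in 5637P and at 9.79 and 13.8 CPM in 5637GR libraries 1 and 2, a log2 fold change of -4.52 ± 0.38 (edgeR, adjusted p = 0.00060), and its part in the values of the junction genes was not tested. The endothelial list (3 of 4 genes analysed here) summed to 0.0469 to 0.301 FPKM and the leukocyte list of 5 genes to 0.323 to 0.770 FPKM. The fibroblast list (5 of 6 genes analysed here) summed to 23.2 to 26.1 FPKM, most of it from the collagen genes COL1A1 and COL1A2, which epithelial cancer lines can also transcribe. Counting intervals and floors below cover counting error only.

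The promoter windows of DSC2 and DSP are shown because these genes had the largest differences that were alike in both resistant clones, in opposite directions. Each runs from 250 bases before to 50 bases after a RefSeq start site and is given on its gene's strand (GRCh38.p14, not the build of the deposited table). DSC2 has start sites at 2 places, in windows chr18:31102372-31102671 and chr18:31101211-31101510 on the minus strand, and the window of DSP is chr6:7541421-7541720 on the plus strand. Capitals mark the E-box CACCTG or its reverse complement CAGGTG, the sequence that the SNAI and ZEB repressors of CDH1 are known to bind.
DSC2 first start: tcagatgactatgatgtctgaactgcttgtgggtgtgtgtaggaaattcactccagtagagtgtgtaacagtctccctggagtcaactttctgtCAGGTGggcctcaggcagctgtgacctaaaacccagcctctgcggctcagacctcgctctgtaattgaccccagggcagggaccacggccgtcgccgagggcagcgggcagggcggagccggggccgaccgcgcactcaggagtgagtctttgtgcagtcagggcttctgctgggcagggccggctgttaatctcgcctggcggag
DSC2 second start: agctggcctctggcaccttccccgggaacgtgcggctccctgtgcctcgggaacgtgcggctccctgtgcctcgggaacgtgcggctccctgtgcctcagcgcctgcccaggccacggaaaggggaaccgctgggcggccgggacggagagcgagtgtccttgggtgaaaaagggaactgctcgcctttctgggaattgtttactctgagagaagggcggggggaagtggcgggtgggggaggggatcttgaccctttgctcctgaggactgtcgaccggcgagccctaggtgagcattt
DSP: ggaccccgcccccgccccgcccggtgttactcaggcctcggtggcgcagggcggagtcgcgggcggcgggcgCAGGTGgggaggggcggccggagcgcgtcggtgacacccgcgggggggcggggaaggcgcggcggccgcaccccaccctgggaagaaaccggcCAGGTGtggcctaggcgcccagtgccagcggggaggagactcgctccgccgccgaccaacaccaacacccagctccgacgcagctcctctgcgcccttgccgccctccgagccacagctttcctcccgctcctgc
The DSP window held the E-box at 2 places, the first DSC2 window at 1 and the second DSC2 window at 0, and 20.6% of the 35116 promoter windows of the same length held at least 1. The DSG2 window and the second of the JUP windows also held it at 2 places, and those of PKP1, DSC3 and DSG3 and the first of JUP at 0. The grainyhead motif AACCGGTT and the AP-1 motif TGACTCA, searched on both strands, were in none of the 9 windows found for 7 of the 10 genes, and in 0.134% and 4.95% of all windows. CDH1, CDH3 and PKP3 had no window. A match is a match of letters and was not tested as a binding site.

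Per length, JUP was the most abundant of the 10 genes in each library, at 332.5 FPKM in the parental library and 382.5 and 434.5 FPKM in resistant libraries 1 and 2. At the other end, DSC3 was read at 4.0, 4.54 and 4.83 FPKM and DSG3 at 4.89, 6.03 and 7.98 FPKM in the same order of libraries. In the parental library the order from the top was JUP, PKP3, CDH3, CDH1, DSG2, DSP, PKP1, DSC2, DSG3 and DSC3. Counting intervals of neighbours in this order did not meet, the closest being those of DSC3, which ended at 4.41 FPKM, and of DSG3, which began at 4.42 FPKM. The order changed in the resistant clones: PKP3, the second in the parental library, was the fifth in resistant library 1 and the third in library 2, and DSC2 passed PKP1 in both. In resistant library 2 the difference between DSC2, at 14.3 FPKM (95% counting interval 13.5 to 15.1), and PKP1, at 13.2 FPKM (12.5 to 13.9), was within counting error.

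**Figure D1:**
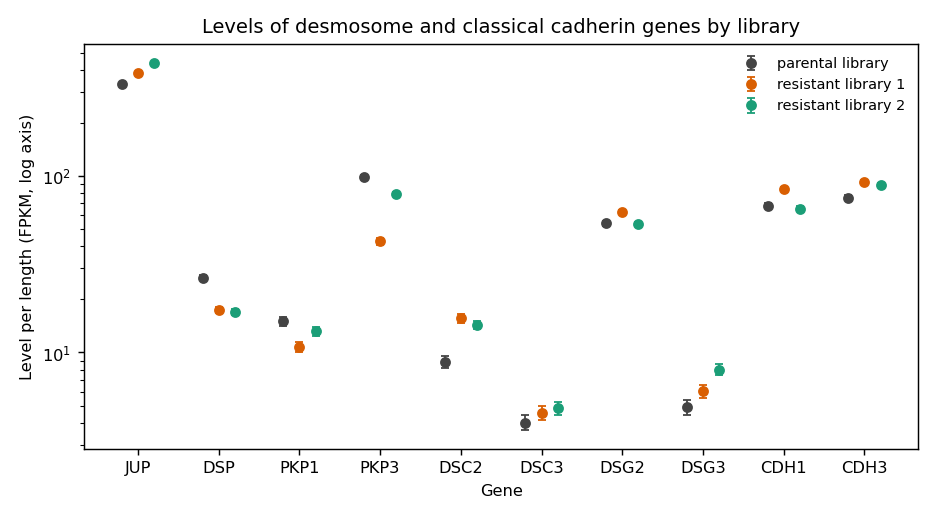
Levels of the 10 genes (x axis) in FPKM on a log axis (y axis) in 1 parental library and 2 resistant libraries, with exact Poisson 95% counting intervals. JUP lies between 332.5 and 434.5 FPKM, and DSC3 between 4.0 and 4.83 FPKM, and PKP3 is lowest in resistant library 1, at 42.8 FPKM.

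Among the classical cadherins, CDH1 (ENSG00000039068, chromosome 16, 68771128 to 68869445, plus strand, hg19 as named in the submitters' processing notes) is the main adhesion molecule of the epithelial adherens junction. It was read at 341 CPM in 5637P and at 398 and 321 CPM in 5637GR libraries 1 and 2. The resistant clones lay on either side of the parental library. The log2 fold change was 0.08 ± 0.37 (SE), a ratio of 1.05 with a 95% interval of 0.599 to 1.86 (edgeR, adjusted p = 0.986). As the authors' mean of normalized counts, CDH1 was at 4861 in 5637P and 4581 in 5637GR, a log2 ratio of -0.09. These means include the 3 libraries and carry no spread.

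CDH3 (ENSG00000062038, chromosome 16, 68670092 to 68756519, plus strand) lies next to CDH1 and encodes the cadherin of basal epithelial cells. It was read at 287 CPM in 5637P and at 332 CPM in each 5637GR library, 1.16-fold (95% counting interval 1.11 to 1.21) and 1.15-fold (1.11 to 1.20) above it. The fitted log2 fold change was 0.21 ± 0.36 (SE), with an interval from -0.59 to 1.01 (edgeR, adjusted p = 0.942). In the authors' group means the direction was the opposite, 4240 in 5637GR against 4823 in 5637P, a log2 ratio of -0.19.

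CDH1 and CDH3 were read in a ratio per length of 0.901 in the parental library (95% counting interval 0.864 to 0.940), 0.909 in resistant library 1 (0.876 to 0.942) and 0.735 in library 2 (0.708 to 0.763). The ratio in resistant library 2 lay below that in the other libraries, and no spread within the parental group was at hand to set against it. In the authors' means the ratio was 0.765 in 5637P and 0.820 in 5637GR. The N-cadherin gene CDH2, which is not among the 10, was lower in both resistant clones, at 86.7 and 72.8 against 142 CPM, with a log2 fold change of -0.83 ± 0.35 (SE) that did not pass the test (edgeR, adjusted p = 0.464). The ratio per length of CDH1 to CDH2 was 2.13 in the parental library and 4.08 and 3.92 in the resistant libraries, and 1.78 and 2.36 in the authors' means of 5637P and 5637GR.

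DSC2 (ENSG00000134755, chromosome 18, 28645940 to 28682378, minus strand) encodes the desmocollin found in most desmosome-bearing tissues. It was read at 46.5 CPM in 5637P, from 654 reads, and at 77.5 and 73.7 CPM in 5637GR libraries 1 and 2, from 1267 and 1279 reads. Both resistant clones were above the parental library, and they differed from each other by less than counting error (ratio 0.951, 0.879 to 1.03). The log2 fold change was 0.70 ± 0.36 (SE), a ratio of 1.63 with a 95% interval of 0.939 to 2.82 (edgeR, adjusted p = 0.588). The authors' group means were 637 in 5637P and 922 in 5637GR, a log2 ratio of 0.53. DSC2 was the single gene of the 10 at least 1.5-fold higher in both resistant libraries, where 10.2% of all genes tested were, and a share of 1 in 10 is near that background.

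DSC3 (ENSG00000134762, chromosome 18, 28569974 to 28622781, minus strand), the desmocollin of basal layers, was read at 28.7 CPM in 5637P and at 30.7 and 34.0 CPM in 5637GR libraries 1 and 2. Only library 2 differed from the parental library by more than counting error, at 1.18-fold (1.04 to 1.35), against 1.07-fold (0.937 to 1.22) for library 1. The log2 fold change was 0.17 ± 0.36 (edgeR, adjusted p = 0.955), while the authors' group means, 555 in 5637P and 459 in 5637GR, gave a log2 ratio of -0.27. DSC2 therefore made up more of the desmocollin level per length in the resistant clones, 77.5% and 74.7% against 68.8%. In the authors' group means the share was 73.2% in 5637GR and 61.0% in 5637P. The summed desmocollin level was 12.8 FPKM in the parental library and 20.2 and 19.1 FPKM in the resistant libraries.

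DSG2 (ENSG00000046604, chromosome 18, 29078006 to 29128971, plus strand), the desmoglein of simple and many other epithelia, was read at 323 CPM in 5637P and at 354 and 315 CPM in 5637GR libraries 1 and 2. The resistant clones again lay on either side, and the log2 fold change was 0.05 ± 0.36 with an interval from -0.75 to 0.85 (edgeR, adjusted p = 0.991). The authors' group means were 4738 in 5637P and 4554 in 5637GR.

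DSG3 (ENSG00000134757, chromosome 18, 29027758 to 29058665, plus strand), the basal desmoglein that is the target of antibodies in pemphigus vulgaris, was read at 27.8 CPM in 5637P and at 32.3 and 44.4 CPM in 5637GR libraries 1 and 2. Resistant library 2 was 1.37-fold above library 1 (95% counting interval 1.23 to 1.54). The fitted log2 fold change was 0.47 ± 0.38, with an interval from -0.39 to 1.32 (edgeR, adjusted p = 0.813), and the authors' group means, 467 in 5637P and 453 in 5637GR, gave -0.04. DSG2 held 91.7% of the desmoglein level per length in the parental library, 91.2% in resistant library 1 and 87.1% in library 2. In the authors' means its share was 90.6% in 5637P and 90.5% in 5637GR.

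**Figure D2:**
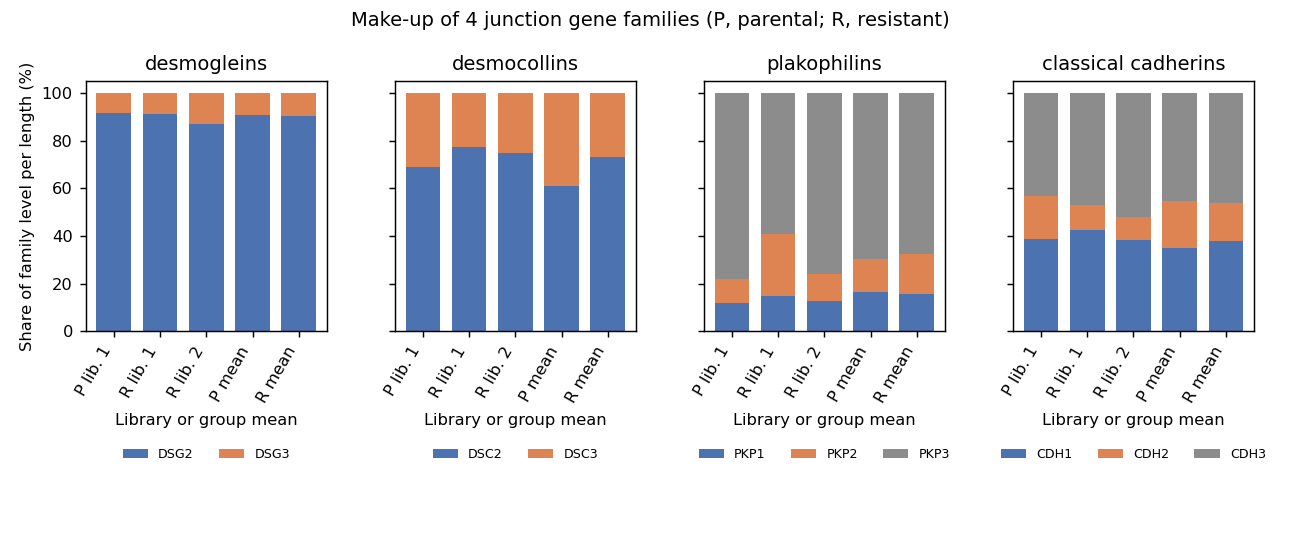
Share of each gene in the level per length of its family (y axis, percent) in the 3 libraries and in the authors' group means (x axis), for desmogleins, desmocollins, plakophilins and classical cadherins. The DSC2 share is 68.8% in the parental library and 77.5% and 74.7% in the resistant libraries, and the PKP3 share is 59.1% in resistant library 1.

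DSP (ENSG00000096696, chromosome 6, 7541808 to 7586950, plus strand) encodes desmoplakin, the link between the desmosomal plaque and keratin filaments. It was read at 267 CPM in 5637P, from 3756 reads, and at 165 and 167 CPM in 5637GR libraries 1 and 2, from 2698 and 2897 reads. Both resistant clones were lower and nearly equal, with a ratio between them of 1.01 (95% counting interval 0.959 to 1.07). The log2 fold change was -0.68 ± 0.35 (SE), a ratio of 0.622 with an interval of 0.363 to 1.07 (edgeR, adjusted p = 0.588). The authors' group means were 4235 in 5637P and 2769 in 5637GR, a log2 ratio of -0.61. DSP was the single gene of the 10 whose group means were at least 1.5-fold apart, a distance reached by 18.6% of the 14630 genes with a mean of at least 10. It was also the single gene at least 1.5-fold lower in both resistant libraries, where 9.22% of all genes tested were.

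JUP (ENSG00000173801, chromosome 17, 39775692 to 39943183, minus strand) encodes plakoglobin, which sits in both desmosomes and adherens junctions. It was read at 1195 CPM in 5637P and at 1297 and 1530 CPM in 5637GR libraries 1 and 2, with a log2 fold change of 0.24 ± 0.35 (edgeR, adjusted p = 0.930) and authors' group means of 18038 in 5637P and 19001 in 5637GR. Both resistant clones were above the parental library, library 2 by more than library 1. The interval given for JUP in the table also holds KRT17, HAP1 and EIF1, and the labels do not say whether these libraries kept strand, and how reads on shared bases were counted is not given in the sources used here. KRT17, on the same strand, had 2759 reads in the parental library and 281 and 926 in the resistant libraries, and its part in the JUP counts was not tested. The ratio per length of JUP to DSP was 12.6 in the parental library and 22.0 and 25.7 in the resistant libraries, and 11.9 and 19.2 in the authors' means of 5637P and 5637GR.

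PKP1 (ENSG00000081277, chromosome 1, 201252580 to 201302121, plus strand), the plakophilin of stratified epithelia, was read at 83.9 CPM in 5637P and at 57.0 and 72.2 CPM in 5637GR libraries 1 and 2. Both resistant clones were lower, library 1 by more than library 2, and the log2 fold change was -0.38 ± 0.35 with an interval from -1.16 to 0.41 (edgeR, adjusted p = 0.850). The authors' group means were 1441 in 5637P and 1058 in 5637GR, a log2 ratio of -0.45.

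PKP3 (ENSG00000184363, chromosome 11, 392614 to 404908, plus strand), a plakophilin known to bind desmosomal cadherins broadly, had the most negative fold change and the widest gap between the resistant clones. It was read at 285 CPM in 5637P, from 4012 reads, and at 116 and 224 CPM in 5637GR libraries 1 and 2, from 1902 and 3877 reads. Resistant library 1 was at 0.408 of the parental level (95% counting interval 0.387 to 0.431) and library 2 at 0.784 (0.750 to 0.820). The log2 fold change was -0.75 ± 0.43 (SE), with an interval from -1.70 to 0.21 (edgeR, adjusted p = 0.663), and -0.35 without resistant library 1 or -1.29 without library 2, values that have no test. The authors' group means were 3159 in 5637P and 2377 in 5637GR, a log2 ratio of -0.41. The clones differed 1.92-fold from each other (1.82 to 2.03), and PKP3 was the single gene of the 10 past 1.5-fold between them, where 31.5% of all genes tested were. None of the 10 was past 2-fold, against 13.0% of all genes tested.

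PKP3 held 78.1% of the plakophilin level per length in the parental library, 59.1% in resistant library 1 and 76.2% in library 2. PKP2, the plakophilin of simple epithelia and heart muscle, made up 10.0%, 26.0% and 11.2% in the same libraries. The summed plakophilin level was 126 FPKM in the parental library and 72.3 and 104 FPKM in the resistant libraries. In the authors' group means, which carry no spread, the PKP3 share was 69.8% in 5637P and 67.6% in 5637GR.

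Seen across the 10 genes, both resistant libraries lay above the parental library for CDH3, DSG3, DSC2, DSC3 and JUP, where 35.2% of all genes tested did, and below it for DSP, PKP1 and PKP3, where 34.5% did. For 8 of the 10 genes the resistant libraries were thus on the same side, against 69.6% of all genes tested. The 4 desmosomal cadherins had fitted log2 fold changes from 0.05 to 0.70. Of the plaque genes, DSP, PKP1 and PKP3 were at -0.75 to -0.38, and JUP was at 0.24. No gene of either kind passed the test. The desmosome genes PKP2 and PKP4, which are not among the 10, were at 0.20 and -0.26. The median log2 fold change of the 10 genes was 0.12 beside 0.03 over all genes tested, and the median log2 ratio of the group means was -0.14 beside 0.01 over all genes with a mean of at least 10. The medians had opposite signs, and CDH1, CDH3, DSG2, DSG3 and DSC3 each had a positive fold change in the libraries and a negative ratio in the group means. DSC2 and JUP were higher and DSP, PKP1 and PKP3 lower in both kinds of value. The sign was thus the same in both for 5 of the 10 genes, against 13167 of all 15643 genes tested.

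**Figure D3:**
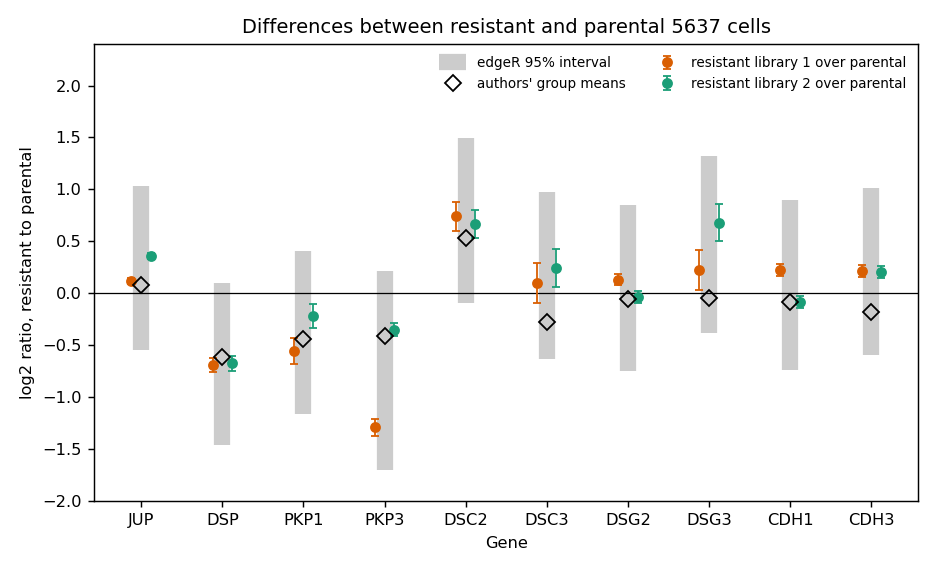
log2 ratio of resistant to parental (y axis) for the 10 genes (x axis). Points are each resistant library over the parental library with 95% counting intervals, grey bars the 95% intervals of the edgeR fit, and diamonds the ratios of the authors' group means. Every grey bar crosses 0, and both points and the diamond lie above 0 for DSC2 and JUP and below 0 for DSP, PKP1 and PKP3.

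The chromosomal surroundings of the 10 genes differed. Within 1 Mb of PKP3 on chromosome 11, 40 of 45 tested genes had a negative log2 fold change, with a median of -0.64 (-0.77 for resistant library 1 alone and -0.42 for library 2 alone). PKP3, at -1.29 and -0.35 in these libraries, thus lay among neighbours with mostly negative values, although the nearest gene on each side, B4GALNT4 at -0.14 and SIGIRR at 0.07, was near 0. The median over the 854 tested genes of chromosome 11 was -0.31. DSP was at -0.68. Of its 10 tested neighbours on chromosome 6, 7 had a positive log2 fold change, with a median of 0.38. Over chromosome 6, 458 of 768 tested genes had a positive one. The nearest tested genes had the same sign as DSP. RP3-512B11.3 before it, with 18 reads or fewer per library, was at -0.30, and SNRNP48 after it was at -0.28.

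DSC3, DSC2, DSG3 and DSG2 lie in this order in a single cluster on chromosome 18. Of the 9 tested neighbours of DSC2 within 1 Mb, all 9 had a positive log2 fold change, with a median of 0.47, and 3 of them are the other desmosomal cadherins named here. Over chromosome 18, 140 of 226 tested genes had a positive one, with a median of 0.11. In the authors' group means the median log2 ratio of the 9 was 0.11, and DSG2, DSG3 and DSC3 had negative ratios. For resistant library 2 alone the median was 0.68, with DSG2 (-0.03) and TRAPPC8 (-0.06) below the parental library. The neighbours RP11-408H20.1 and RP11-75N4.2 had 18 reads or fewer per library. DSG1, in the same cluster, had 0 reads in the parental library and resistant library 1, which allows up to 0.213 and 0.184 CPM, and 1 read in library 2. CDH2, on the same chromosome, was at -0.83. The neighbours of CDH1 and CDH3, at a median of 0.03 each, and of PKP1, at 0.02, were near 0, and those of JUP were at 0.16.

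**Figure D4:**
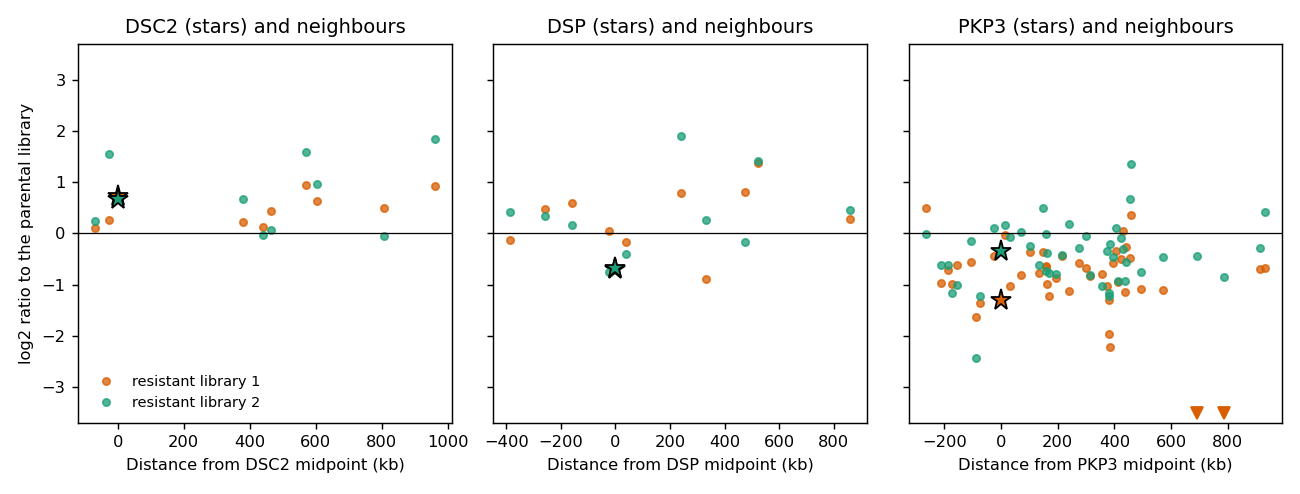
log2 ratio of each resistant library to the parental library (y axis) for tested genes within 1 Mb of DSC2, DSP and PKP3, by distance from the gene's midpoint in kb (x axis), with the gene itself as stars. Triangles at the lower edge are MUC2 and MUC5AC, with 0 reads in resistant library 1, and most points around PKP3 lie below 0.

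The other desmosome genes tested, PKP2, PKP4 and PERP, had log2 fold changes between -0.26 and 0.20, and 0 of the 3 passed the test. PERP, a membrane protein of desmosomes, was read at 456 CPM in 5637P and at 405 and 368 CPM in 5637GR libraries 1 and 2. Of the other classical cadherins, 5 of 16 listed genes had enough reads to be tested and 0 passed. CDH24 was read at 117, 92.8 and 105 CPM, and CDH7 at 2.49, 5.02 and 5.25 CPM, in the order parental, resistant 1 and resistant 2.

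Among 12 tested catenins and adherens junction partners, 1 was lower and 0 were higher by the test, and 5 had an unadjusted p under 0.05. Over all genes tested, 0.582% were lower and 0.294% higher by the test, and 9.7% had an unadjusted p under 0.05. The lower gene was CTNND2, delta-catenin, known mainly from neurons, with 40 reads in the parental library and 2 and 1 in the resistant libraries (edgeR, adjusted p = 0.0455). The parental level was 23.2 times that of resistant library 1, with a 95% counting interval of 6.02 to 198, and the authors' group means were 110.7 in 5637P and 2.05 in 5637GR. CTNND2 did not pass with DESeq2 (adjusted p = 0.127), and its adjusted p over 5 ways of testing ranged from 3.4e-06 to 0.127. The catenins CTNNA1, CTNND1 and CTNNB1 did not pass. CTNNA1 (alpha-catenin) was read at 592 CPM in 5637P and at 376 and 305 CPM in 5637GR libraries 1 and 2, with a log2 fold change of -0.80 ± 0.36 (edgeR, adjusted p = 0.508). CTNND1 (p120-catenin, which stabilizes cadherins at the membrane) was read at 497, 297 and 248 CPM, with a log2 fold change of -0.87 ± 0.35 (edgeR, adjusted p = 0.451). For CTNNB1 (beta-catenin) the values were 400, 406 and 443 CPM. CTNND1 lies on chromosome 11, where 570 of 854 tested genes had a negative log2 fold change. Of its 16 tested neighbours within 1 Mb, 13 had a negative one. CTNNA1 lies on chromosome 5, and 17 of its 21 tested neighbours within 1 Mb had a negative one. Over all genes tested, 7462 of 15643 had a negative one, and the share over chromosome 5 was not counted.

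NECTIN4 (PVRL4 in the table), a cell adhesion molecule and the target of an antibody-drug conjugate used in urothelial cancer, was read at 1.70 CPM in 5637P, from 24 reads, and at 9.06 and 7.21 CPM in 5637GR libraries 1 and 2, from 148 and 125 reads. Its log2 fold change was 2.25 ± 0.56 (SE), which did not pass the test (edgeR, adjusted p = 0.140), and the authors' group means were 23.0 in 5637P and 87.7 in 5637GR. With no filter on low counts it did (adjusted p = 0.0215).

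Of 12 tested regulators that are known to repress cadherins or to maintain epithelial junctions, 0 passed and 2 had an unadjusted p under 0.05. Over all genes tested, 0.876% passed and 9.7% had such an unadjusted p. GRHL3, a grainyhead factor of epithelial differentiation, was read at 28 reads in the parental library and at 218 and 200 in the resistant libraries, a log2 fold change of 2.64 ± 0.52 (SE). The authors' group means were 51.7 in 5637P and 129.4 in 5637GR, a log2 ratio of 1.31. GRHL3 had an adjusted p of 0.054 in the edgeR test and one under the threshold in the other 4 ways of testing, 0.0059 with DESeq2. KLF4 was read at 37.4 CPM in 5637P and at 72.2 and 99.8 CPM in 5637GR libraries 1 and 2 (edgeR, log2 fold change 1.20 ± 0.39, adjusted p = 0.301). Among the other regulators, KLF5 was read at 311, 131 and 337 CPM and GRHL2 at 98.8, 77.2 and 60.1 CPM, in the order parental, resistant 1 and resistant 2. The E-cadherin repressors gave no common direction, with ZEB1 at 4, 7 and 20 reads, ZEB2 at 45, 28 and 28, SNAI1 at 6, 11 and 2 and SNAI2 at 572, 472 and 777. TWIST1, a further repressor on the list, was above the parental library in both resistant clones, at 22.2, 31.0 and 58.0 CPM, with a log2 fold change of 1.00 ± 0.45 that did not pass the test (edgeR, adjusted p = 0.516), and the authors' group means were 346 in 5637P and 614 in 5637GR. Of 13 tested genes of cadherin processing and desmosome turnover, 0 passed, and 10 had a negative log2 fold change, with a median of -0.19, where 7462 of all 15643 genes tested had a negative one. In the group means 8 of the 13 were lower in 5637GR, where 7444 of all 15643 genes tested were. Of the plakins on this list, which link junctions to keratin, PPL (periplakin) was at 503, 427 and 454 CPM and PLEC (plectin) at 8266, 5701 and 7249 CPM in the same order, log2 fold changes of -0.19 ± 0.35 and -0.35 ± 0.33. EVPL (envoplakin) was at 203, 176 and 268 CPM, a log2 fold change of 0.13 ± 0.40. The log2 ratios of the group means were -0.19 for PPL, 0.02 for PLEC and 0.05 for EVPL. The furthest was PCSK5, a proprotein convertase, at -1.21 ± 0.41 (edgeR, adjusted p = 0.335).

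**Figure D5:**
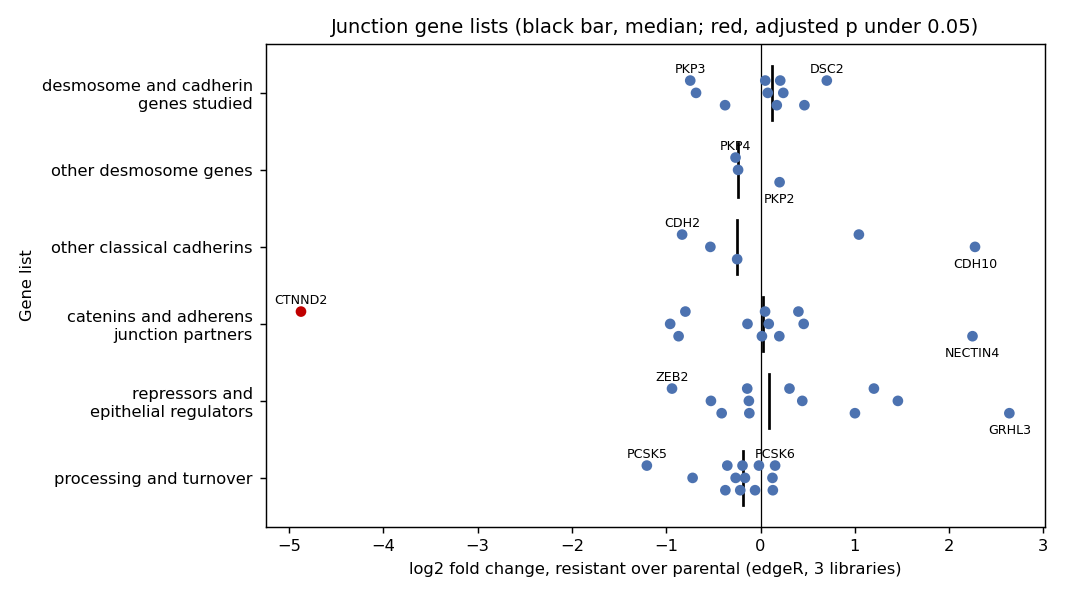
Fitted log2 fold change (x axis, resistant over parental, 3 libraries) of each tested gene in 6 junction gene lists (y axis), with the median of each list as a black bar and the lowest and highest gene named. CTNND2 is the single red point (adjusted p under 0.05), and the 10 genes described here lie between -0.75 and 0.70.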

How the data were processed

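Poly(A) RNA of 5637P and 5637GR clones was sequenced by Novogene on an Illumina instrument. The submitters' processing notes name CASAVA 1.8 and hg19, and the aligner, counter and annotation are not given in the sources used here. Per the file headers and values, the table deposited by the authors holds raw read counts per gene and library, and FPKM, which equals count divided by gene length and by the library's total count. It also holds a signal per group, the authors' mean of counts divided by a size factor. Deposited columns with the authors' own fold changes and p-values were not used, nor were 6 value columns of libraries without a label here.

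Counts of 3 libraries were scaled by TMM (factors 0.974, 1.03 and 0.995), filtered with filterByExpr (15643 of 29960 genes) and tested with edgeR 4.0.16's quasi-likelihood test (R 4.3.3) with Benjamini-Hochberg adjustment over all genes tested, leaving 1 residual degree of freedom. The SE was the log2 fold change divided by the square root of F. Ratios between libraries carry exact conditional binomial 95% intervals and FPKM exact Poisson ones, which cover counting error only. A count of 3 corresponds to 0.213, 0.184 and 0.173 CPM in the parental and resistant libraries 1 and 2. Ratios of group means used a pseudocount of 1, so fold changes of low genes are understated. Older symbols were matched by identifier. The genes, lists and tests were chosen with earlier results of these data known. Named were the 10 genes, genes of the lists that passed the test or had the highest counts, the nearest tested genes, and others chosen after their values were seen (NECTIN4, GRHL3, ZEB1, ZEB2, SNAI1, SNAI2, PCSK5, MUC2, MUC5AC, KRT5, KRT17). The test was checked on simulated data, in which most changes of 2-fold were missed. DESeq2 1.42.0, other scalings, no filter, other pseudocounts and left-out libraries were tried as alternatives. Python 3.11.15, scipy 1.17.1 and pandas 2.3.3 were used. The values of 1 gene of the lists are not reported here.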

Additional observations from a re-analysis of the deposited data

How the results depend on the processing

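The number of genes called depended on the setting: 137 with the edgeR test as used, 235 with DESeq2's size factors, 228 with library size alone, 534 with no filter on low counts and 243 with the DESeq2 test. Of these calls 33.6% were higher in 5637GR in the test as used, against 43.9% with library size alone, 49.0% with DESeq2 and 51.1% without the filter. None of the 10 junction genes passed in any of these 5, and the lowest adjusted p among them was between 0.552 and 0.841 (edgeR or DESeq2). Without the filter 1 of the 10 had an unadjusted p under 0.05 (edgeR), where 2149 of the 26434 genes then tested did. Their log2 fold changes kept their direction in all 5. Leaving out 1 resistant library left 1 library against 1, so counts of calls could not be had. The log2 fold change of PKP3 then ranged from -1.29 to -0.35, and that of CDH1 was 0.22 without resistant library 2 and -0.09 without library 1, while DSG2 was at 0.13 and -0.03. With library size alone the log2 ratio of resistant library 2 to library 1 was -0.36 for CDH1, -0.058 for CDH3, -0.22 for DSG2 and 0.18 for JUP, outside the counting intervals of the TMM values, since TMM scales these libraries by different factors. Ratios of the group means moved by less than 0.05 (log2) under each pseudocount and after centring. With 1 parental library, the size of differences between parental clones cannot be seen here. No paired analysis was made, because the labels do not pair parental clones with resistant clones.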

Other observations

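The 3 genes outside the lists whose log2 ratios to parental were nearest to the median of the 10 junction genes, by Euclidean distance over both resistant libraries and the group means, were RRN3P3, LINC00116 and LONRF3, at distances of 0.0328, 0.0378 and 0.0400 on the log2 scale. The median of the 10 genes was 0.12 in resistant library 1, 0.09 in library 2 and -0.14 in the group means. With 3 values per gene, many genes lie near any such profile.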
